A study of Mus musculus with 22 samples.

Results

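The genes described here are 8 chaperones and chaperone partners (Hspa8, Hspa1b, Hspa5, Hsph1, Dnajb1, Hsp90aa1, Hsp90ab1 and Chordc1) and the cold-inducible RNA-binding proteins Cirbp and Rbm3, 10 of the 39056 genes counted in the prefrontal cortex (PFC) of male mice of 8 to 12 weeks. They were listed by symbol, each was matched to its Ensembl gene identifier, and all 10 passed the filter on low counts that kept 14072 genes. They were chosen by symbol as genes known to answer to temperature, with the fold changes of earlier fits of these same libraries already known, so that every comparison of treated mice with Control is given below as a description and not as a test. The mice carried a tetO-EGFP/Rpl10a transgene, a ribosomal protein tagged with a fluorescent protein, that is switched on by CaMKIIα-tTA, a transactivator driven by the CaMKIIα promoter, on a C57BL/6J background. Every group carried both transgenes. For 4 days mice received 2 i.p. injections a day, 2 h apart, of normal saline (Control, n = 3 mice) or ethanol to 2 g/kg per day (EtOH, n = 4). A further group had EtOH on all 4 days, with the PARP inhibitor ABT-888 at 25 mg/kg added on day 4 (EtOH + ABT-888, n = 4). Tissue was taken 2 h after the last injection. From each of the 11 mice, RNA on the tagged ribosomes was pulled down (translating ribosome affinity purification, TRAP), and total-RNA was taken from the same lysate, which gave 22 libraries in 6 groups. No group received ABT-888 without EtOH.

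Chaperones bind unfolded protein and keep it from aggregating. The HSP70 proteins do this with a J-domain partner such as Dnajb1 and a nucleotide exchange factor such as Hsph1, and they pass clients on to the HSP90 proteins, which work with cochaperones such as Chordc1. Several of these genes are switched on by heat shock factor Hsf1, which binds repeats of GAA and TTC called heat shock elements, and Hspa5, the HSP70 of the endoplasmic reticulum (ER), answers to unfolded protein there through the ER stress element. Cirbp and Rbm3 are small RNA-binding proteins known for rising when cells or brain are mildly cooled, and both bind RNA through a single RNA recognition motif.

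Promoter sequence around the start of transcription is shown for 5 of the genes, because it holds the elements named above. Of the 10 genes, 6 were matched by symbol to RefSeq windows on GRCm38.p6 that run from 250 bases before a start to 50 after it (9 windows in all). Hspa8, Hsp90aa1, Hsp90ab1 and Rbm3 had no window there. Searched on both strands, the heat shock element of 2 units (GAANNTTC or TTCNNGAA) was in 15.1% of all 32851 windows and that of 3 units (GAA, TTC and GAA, each 2 bases apart, which overlaps the shorter forms) in 0.603%. The ER stress element (CCAAT and CCACG with 9 bases between) was in 0.119% and TCCCCGCC, known as the mild cold response element of Cirbp, in 5.38%. The windows are printed 5′ to 3′ up to 30 bases after the start, with the matches in capitals. Chordc1 at chr9:18292017-18292296 (+) carries an unbroken run of heat shock units over its start, and Hsph1 at chr5:149636286-149636565 (-) carries a match of 3 units and a separate match of 2 units. Hspa1b at chr17:34959209-34959488 (-) carries TCCCCGCC on the other strand and then a match of 2 heat shock units. Hspa5 at chr2:34771840-34772119 (+) carries the ER stress element, and Cirbp at chr10:80167589-80167868 (+) carries TCCCCGCC.
Chordc1: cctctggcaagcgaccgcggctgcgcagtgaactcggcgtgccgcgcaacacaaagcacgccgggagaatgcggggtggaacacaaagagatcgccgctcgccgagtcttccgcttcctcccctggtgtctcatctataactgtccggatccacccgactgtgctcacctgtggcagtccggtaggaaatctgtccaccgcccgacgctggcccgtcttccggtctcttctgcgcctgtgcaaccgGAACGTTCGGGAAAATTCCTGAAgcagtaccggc
Hsph1: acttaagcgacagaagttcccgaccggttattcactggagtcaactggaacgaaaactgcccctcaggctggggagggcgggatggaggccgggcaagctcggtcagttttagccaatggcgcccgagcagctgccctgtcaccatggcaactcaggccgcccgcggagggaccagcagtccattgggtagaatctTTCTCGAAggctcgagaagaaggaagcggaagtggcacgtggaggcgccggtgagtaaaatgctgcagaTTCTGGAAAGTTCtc
Hspa1b: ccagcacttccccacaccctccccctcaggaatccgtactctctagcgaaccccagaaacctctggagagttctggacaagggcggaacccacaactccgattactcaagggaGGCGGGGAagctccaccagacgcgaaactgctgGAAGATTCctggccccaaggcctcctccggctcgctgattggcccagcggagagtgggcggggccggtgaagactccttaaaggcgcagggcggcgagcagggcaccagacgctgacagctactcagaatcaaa
Hspa5: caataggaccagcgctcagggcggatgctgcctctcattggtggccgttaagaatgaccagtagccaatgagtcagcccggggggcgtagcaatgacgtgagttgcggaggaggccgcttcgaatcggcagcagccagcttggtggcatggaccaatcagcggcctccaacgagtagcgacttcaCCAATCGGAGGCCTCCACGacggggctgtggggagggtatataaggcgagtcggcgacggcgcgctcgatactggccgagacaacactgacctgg
Cirbp: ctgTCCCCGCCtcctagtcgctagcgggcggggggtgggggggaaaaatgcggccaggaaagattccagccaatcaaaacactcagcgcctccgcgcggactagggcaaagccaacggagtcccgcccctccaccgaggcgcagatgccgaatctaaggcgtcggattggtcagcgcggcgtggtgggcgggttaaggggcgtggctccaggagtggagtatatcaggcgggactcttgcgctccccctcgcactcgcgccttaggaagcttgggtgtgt
The Chordc1 run holds 5 alternating GAA and TTC units in a row, each 2 bases apart, and the Chordc1 window was the 1 window of 32851 with that pattern, which was searched for after the sequence had been seen. The windows of Dnajb1 and the second window of Cirbp held no heat shock or ER stress element, and the second Dnajb1 window, not printed, held TCCCCGCC on the other strand. These are matches of letters, not measured binding.

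TRAP libraries held 6570957 to 22002618 counted reads and total-RNA libraries 22132534 to 32421392. Levels are given as normalized CPM, counts scaled to the size of each library by TMM over all 22 libraries, and fold changes come from edgeR's quasi-likelihood fit to the 2 groups compared. In Control, all 8 markers of astrocytes, of oligodendrocytes, of microglia and of endothelial cells and pericytes were lower in TRAP than in total-RNA (adjusted p under 0.05). Of all genes, 30.4% were lower and 29.5% higher in TRAP. Of 8 excitatory neuron markers 6 were lower and 1 was higher in TRAP. Of 8 inhibitory neuron markers 3 were lower and 3 higher, near the shares of all genes. All 8 markers of striatal neurons were higher, with a summed level of 9804 to 11720 CPM in TRAP against 1179 to 1417 CPM in total-RNA. The summed level of the 8 excitatory markers was 4899 to 6249 CPM in TRAP and 4246 to 5162 CPM in total-RNA, higher in TRAP by median, against the count of single markers. Mouse 3 lay nearest to Control of the EtOH + ABT-888 group in both of its libraries. Over the genes that passed the test between EtOH and Control, these 10 left out, 60.9% of 734 in TRAP and 73.6% of 2477 in total-RNA lay nearer to the Control mean than to the EtOH mean in mouse 3. In the other 3 mice of its group this share was 3.27% to 34.1% in TRAP and 8.68% to 29.6% in total-RNA.

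Cirbp and Rbm3 were higher with EtOH in both RNA pools, with no overlap between the EtOH and the Control libraries. Cirbp (ENSMUSG00000045193.13, chr10:80165985-80172786 on mm10, plus strand) was at 48.5, 49.5 and 35.6 CPM in the Control_TRAP libraries of mice 1, 4 and 7. In EtOH_TRAP it was at 157, 221, 132 and 78.5 CPM in mice 2, 5, 8 and 9. All 4 EtOH mice lay above all 3 Control mice, and mouse 9 was the lowest of them. The means were 147.1 ± 59.2 CPM (SD, n = 4) and 44.5 ± 7.76 CPM (SD, n = 3), giving a log2 fold change of 1.75 (SE 0.29), or 3.36-fold. In total-RNA, Cirbp was at 33.7, 28.8 and 22.6 CPM in Control and at 93.5, 105.0, 85.0 and 48.1 CPM in the same 4 EtOH mice. The order of the EtOH mice was the same in both pools, and the log2 fold change was 1.55 (SE 0.22).

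Rbm3 (ENSMUSG00000031167.16, chrX:8138975-8145880, minus strand) shares 94 bp of exon with Rbm3os on the opposite strand, and reads of the pair cannot be told apart where the strand was not used in counting, a setting not given in the sources used here. It was at 55, 39.3 and 25.3 CPM in Control_TRAP and at 133, 121, 115 and 89.8 CPM in EtOH_TRAP, a log2 fold change of 1.55 (SE 0.24). In total-RNA it was at 45.3, 32.5 and 29.0 CPM in Control and at 96.8, 89.4, 93.6 and 68.4 CPM in EtOH, a log2 fold change of 1.29 (SE 0.16). As for Cirbp, mouse 9 was the lowest EtOH mouse in each pool and still above each Control mouse.

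With EtOH + ABT-888, Cirbp was at 33.6, 102, 167 and 80.0 CPM in TRAP and at 25.6, 74.0, 86.7 and 61.4 CPM in total-RNA (mice 3, 6, 10 and 11). Mouse 3 was within the Control range in total-RNA and below it in TRAP, and the other 3 mice were above every Control mouse in both pools. Rbm3 had the same shape, at 38.8, 88.4, 122 and 101 CPM in TRAP and 43.7, 75.9, 95.8 and 79.7 CPM in total-RNA, with mouse 3 again inside the Control range. The log2 fold changes against Control were 1.13 (SE 0.40) for Cirbp and 1.16 (SE 0.35) for Rbm3 in TRAP, and 1.13 (SE 0.34) and 1.06 (SE 0.25) in total-RNA. Without mouse 3 they were 1.41 and 1.41 in TRAP and 1.39 and 1.24 in total-RNA. Over all fits that left out 1 library, Cirbp ran from 0.72 to 1.41 in TRAP and from 0.92 to 1.39 in total-RNA. Rbm3 ran from 0.91 to 1.46 and from 0.90 to 1.26.

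**Figure D1:**
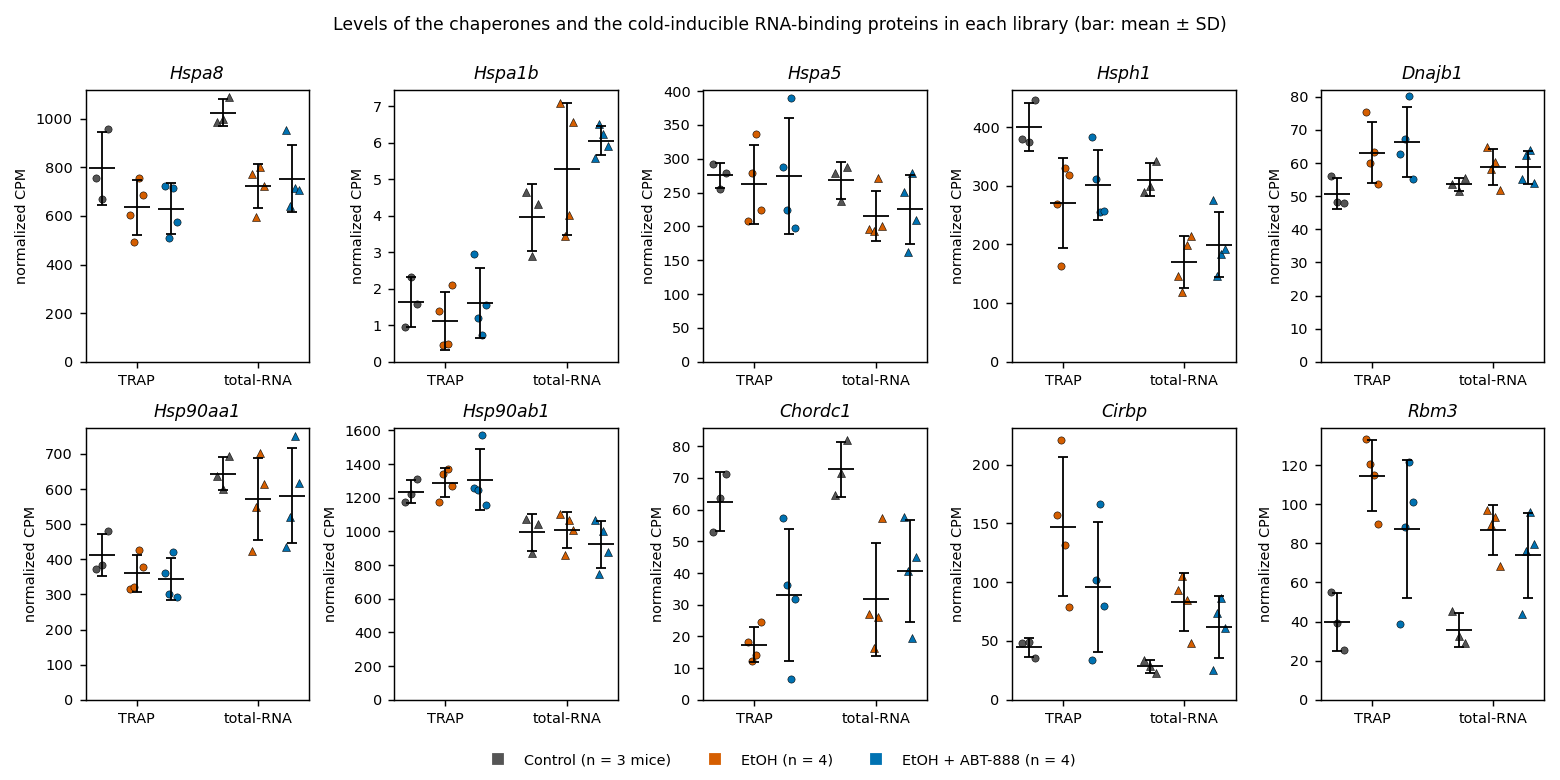
Normalized CPM (vertical axis, from 0) of each of the 10 genes in every library, with circles for TRAP and triangles for total-RNA, colours for the 3 treatments, and a bar for the mean ± SD of each group. All 4 EtOH libraries of Cirbp and Rbm3 lie above, and those of Chordc1 below, the 3 Control libraries in both pools, and the EtOH + ABT-888 libraries spread widely for all 3 genes.

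Chordc1, a cochaperone of HSP90 with zinc-binding CHORD domains, went the other way. Chordc1 (ENSMUSG00000001774.8, chr9:18292125-18317442, plus strand) was at 52.8, 63.5 and 71.3 CPM in Control_TRAP and at 18.3, 12.2, 14.1 and 24.6 CPM in EtOH_TRAP. Every EtOH mouse was below every Control mouse, and the means were 17.3 ± 5.52 CPM (SD, n = 4) and 62.6 ± 9.29 CPM (SD, n = 3), giving a log2 fold change of -1.85 (SE 0.23). In total-RNA it was at 64.7, 71.7 and 82.0 CPM in Control and at 27.1, 16.4, 26.0 and 57.4 CPM in EtOH, a log2 fold change of -1.20 (SE 0.30). Mouse 9, the lowest for Cirbp, was the highest EtOH mouse for Chordc1 in both pools. A gene of the opposite strand, Gm19178, overlaps Chordc1 but shares 0 bp of exon with it.

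With EtOH + ABT-888, Chordc1 varied widely, at 57.4, 36.3, 6.49 and 31.9 CPM in TRAP and 57.8, 40.5, 19.3 and 45.0 CPM in total-RNA (mice 3, 6, 10 and 11). In TRAP mouse 3 lay inside the Control range and mouse 10, on 123 reads, lay below every EtOH mouse. In total-RNA all 4 mice lay below the Control range. The log2 fold changes against Control were -0.92 (SE 0.46) in TRAP and -0.84 (SE 0.28) in total-RNA, and -1.32 and -1.05 without mouse 3. Those were the strongest of the fits that left out 1 library, and the weakest were -0.57 in TRAP and -0.61 in total-RNA.

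Among the HSP70 proteins, Hspa8 was lower with EtOH in total-RNA, whereas the EtOH libraries of Hspa5 and Hspa1b overlapped with Control in both pools. Hspa8 (ENSMUSG00000015656.17, chr9:40800984-40810087, plus strand) encodes the constitutive HSP70 of the cytosol. It was at 985, 1000 and 1088 CPM in Control and at 773, 594, 803 and 723 CPM in EtOH in total-RNA, a log2 fold change of -0.50 (SE 0.11) with no overlap. In TRAP it was at 758, 669 and 960 CPM in Control and at 605, 494, 756 and 687 CPM in EtOH, where the groups overlapped (log2 fold change -0.31, SE 0.17). In EtOH + ABT-888 it was at 722, 510, 716 and 573 CPM in TRAP and at 954, 641, 714 and 708 CPM in total-RNA, where mouse 3 was the closest to Control. The 3 small nucleolar RNA genes Snord14c, Snord14d and Snord14e lie on the same strand within Hspa8 and share 262 bp with its exons.

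Hsph1, an HSP110 that exchanges nucleotide on HSP70, had the largest EtOH difference in total-RNA after Chordc1 among the 8 chaperones and partners of the list. Hsph1 (ENSMUSG00000029657.15, chr5:149614287-149636376, minus strand) was at 290, 300, 343 CPM in the total-RNA of Control and at 147, 120, 199 and 214 CPM in that of EtOH, a log2 fold change of -0.87 (SE 0.17). In TRAP it was at 379, 375 and 447 CPM in Control and at 269, 163, 331 and 318 CPM in EtOH, a log2 fold change of -0.55 (SE 0.21). The groups did not overlap in either pool. In EtOH + ABT-888 it was at 383, 312, 256 and 258 CPM in TRAP and 276, 146, 184 and 193 CPM in total-RNA, with mouse 3 the highest of its group in both.

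Hspa5 (ENSMUSG00000026864.13, chr2:34771970-34777547, plus strand), the ER chaperone also called BiP, was at 293, 255 and 279 CPM in Control_TRAP and at 209, 279, 337 and 224 CPM in EtOH_TRAP, so that the groups overlapped (log2 fold change -0.05, SE 0.18). In total-RNA Hspa5 was at 279, 238 and 288 CPM in Control and at 196, 194, 271 and 201 CPM in EtOH, where mouse 8 lay within the Control range and the other 3 mice below it (log2 fold change -0.31, SE 0.13). In EtOH + ABT-888 the log2 fold change was 0.01 (SE 0.21) in TRAP and -0.25 (SE 0.17) in total-RNA. Hspa1b (ENSMUSG00000090877.3, chr17:34956436-34959238, minus strand), the heat-inducible HSP70, was near the floor of the assay, with 8 to 42 reads per TRAP library and 84 to 242 per total-RNA library. It was at 4.65, 2.90 and 4.31 CPM in Control total-RNA, at 7.10, 3.43, 4.03 and 6.57 CPM in EtOH and at 5.58, 6.51, 6.24 and 5.90 CPM in EtOH + ABT-888. The last 4 values lay above all 3 Control values, with a log2 fold change of 0.62 (SE 0.21), while EtOH overlapped with Control (0.42, SE 0.28). Hspa1b and Hspa1a are near-identical copies, and how reads that fit both were counted is not given in the sources used here, so that each level is uncertain. Hspa1a was at 2.47 ± 0.35 CPM (SD, n = 3) in Control, 2.34 ± 0.26 (SD, n = 4) in EtOH and 2.95 ± 0.28 (SD, n = 4) in EtOH + ABT-888 total-RNA.

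Dnajb1 and the HSP90 genes had log2 fold changes against Control between -0.25 and 0.40, and their groups overlapped in each comparison. Dnajb1 (ENSMUSG00000005483.10, chr8:83608193-83612653, plus strand), the J-domain partner of cytosolic HSP70, was at 56.1, 48.4 and 47.8 CPM in Control_TRAP, at 75.4, 60.0, 63.5 and 53.6 CPM in EtOH and at 62.7, 67.3, 80.3 and 55.3 CPM in EtOH + ABT-888. Its log2 fold changes were 0.33 (SE 0.16) and 0.40 (SE 0.18) in TRAP and 0.14 (SE 0.11) for each treatment in total-RNA, opposite in sign to those of Hsph1 and Chordc1. Hsp90aa1 (ENSMUSG00000021270.13, chr12:110690605-110702728, minus strand), the stress-inducible cytosolic HSP90, had log2 fold changes between -0.25 and -0.15 over the 4 comparisons of treated mice with Control. Hsp90ab1 (ENSMUSG00000023944.14, chr17:45567775-45573271, minus strand), the constitutive form, had log2 fold changes between -0.10 and 0.10.

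**Figure D2:**
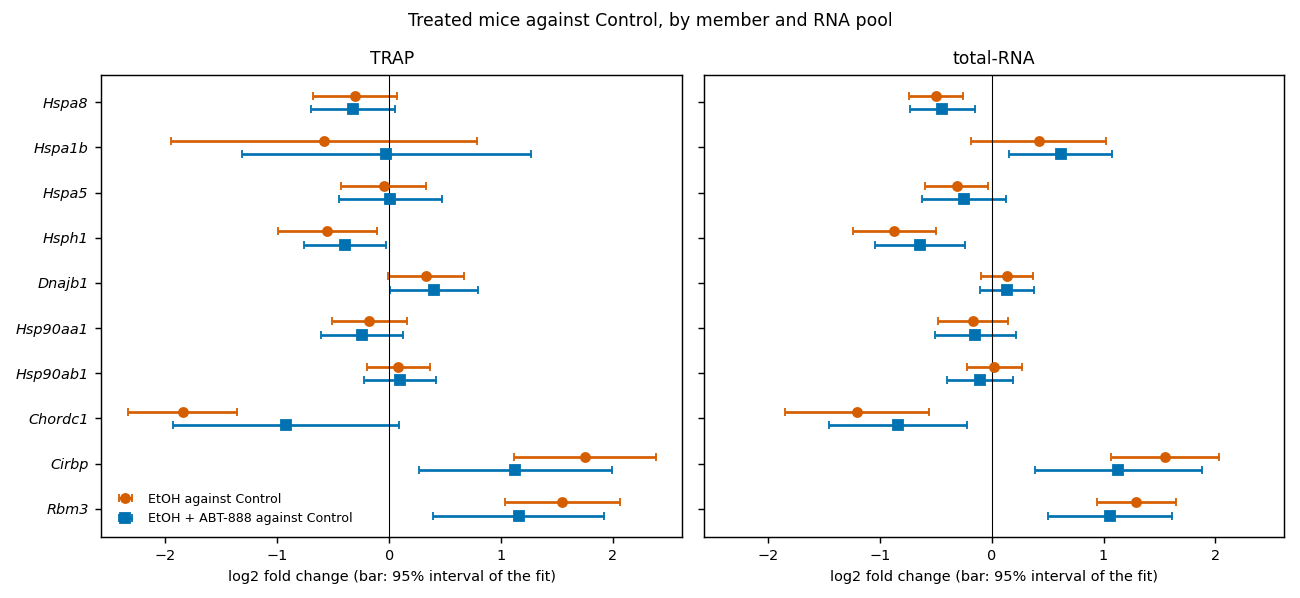
Log2 fold change (horizontal axis) of each gene in TRAP and in total-RNA between each treated group and Control, with bars for the 95% interval of the edgeR fit. Cirbp and Rbm3 lie on the positive side and Chordc1 on the negative side in all 4 comparisons, and the 2 HSP90 genes lie near 0.

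Counted over the list, 3 of the 10 genes passed an adjusted p of 0.05 for EtOH against Control in TRAP by edgeR's quasi-likelihood test (Cirbp and Rbm3 higher, Chordc1 lower), where 5.24% of all genes passed, 2.77% higher and 2.47% lower. In total-RNA 5 of 10 passed (Cirbp and Rbm3 higher, Chordc1, Hspa8 and Hsph1 lower), where 17.6% of all genes passed, 9.04% higher and 8.6% lower. For EtOH + ABT-888 against Control, 0 of 10 passed in either pool, where 0.476% and 0.263% of all genes passed (0.185% higher and 0.291% lower in TRAP, 0.178% higher and 0.0853% lower in total-RNA). At an unadjusted p under 0.05 the counts were 4 of 10 in TRAP and 6 of 10 in total-RNA, against 12.1% and 15.9% of all genes, and DESeq2 called 1 and 3 of the 10 among 423 and 621 genes. In a single fit over all 22 libraries, 1 of the 5 total-RNA calls with EtOH was left (Rbm3), among 151 genes. Groups did not overlap with Control for 4 genes in TRAP and 5 in total-RNA with EtOH, where 22.3% and 30.5% of all genes did not overlap, and for 0 and 4 genes with EtOH + ABT-888, where 14% and 16.9% did not. The genes were proposed from these comparisons, so nothing is read from these counts. Without mouse 3, EtOH + ABT-888 against Control called 2 of 10 in TRAP (Cirbp and Rbm3) and 5 of 10 in total-RNA (the same 5 genes as EtOH), while the number of all genes called went from 67 to 373 and from 37 to 870. Mouse 3 was picked as the mouse nearest to Control, so larger differences from Control without it follow from that choice. Without Control mouse 7, EtOH against Control no longer called Cirbp in TRAP (1.60) or Chordc1 (-1.11) and Hspa8 (-0.45) in total-RNA, and without Control mouse 4 it no longer called Chordc1 (-1.21) in total-RNA.

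The treated mice differed from each other, and for some pairs of genes and libraries they did so in step. Over the 8 mice that received EtOH, with or without ABT-888, Cirbp in TRAP and Cirbp in total-RNA had a Pearson's r of 0.97 on log2 CPM (Spearman's rho 0.98), and Rbm3 had 0.98 (rho 0.95). Chordc1 had 0.86 (rho 0.88) and Dnajb1 0.91 (rho 0.95), whereas Hsp90ab1 had 0.14 (rho 0.05). Each pair of libraries shares a mouse and a lysate. Cirbp went with Rbm3 (r = 0.92 in TRAP and 0.96 in total-RNA, rho 0.83 in each) and against Chordc1 (r = -0.84 in each pool, rho -0.86 and -0.93). Without the 2 mice farthest from the median of Cirbp, r with Chordc1 was -0.78 in TRAP (mice 3 and 5 left out) and -0.89 in total-RNA (mice 3 and 9 left out). For Hsph1 r with Cirbp was -0.75 in TRAP and -0.85 in total-RNA, and -0.28 and -0.60 without those mice, so that it rested in part on them. The r of Cirbp with the sparse Hspa1b was -0.85 in TRAP (-0.66 without those mice) and -0.28 in total-RNA (-0.45). With Dnajb1 it was 0.40 in TRAP (0.93) and 0.65 in total-RNA (0.51), and with Hspa8 -0.36 in TRAP (0.35) and -0.69 in total-RNA (-0.15). With Hspa5 it was 0.21 in TRAP (0.63 without those mice) and -0.17 in total-RNA (0.11). With Hsp90aa1 it was 0.03 in TRAP (0.43) and 0.33 in total-RNA (-0.20). With Hsp90ab1 it was 0.40 in TRAP (0.55) and -0.24 in total-RNA (0.36). For these 3 genes the sign in total-RNA thus rested on the mice left out. Between the pools, r of Hsph1 went from 0.79 to 0.20 and that of Hspa1b from 0.68 to -0.40 when the 2 mice farthest from the median were left out. These are descriptions of 8 mice in libraries from which the genes were chosen, with no test, over 28 pairs computed. The 8 mice were also graded over the 734 other genes called with EtOH in TRAP. With Control at 0 and EtOH at 1, medians were 1.24, 1.21, 0.68 and 0.40 in mice 10, 5, 6 and 3. Such r may thus hold for many genes, and the share of all genes with r as large was not computed.

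**Figure D3:**
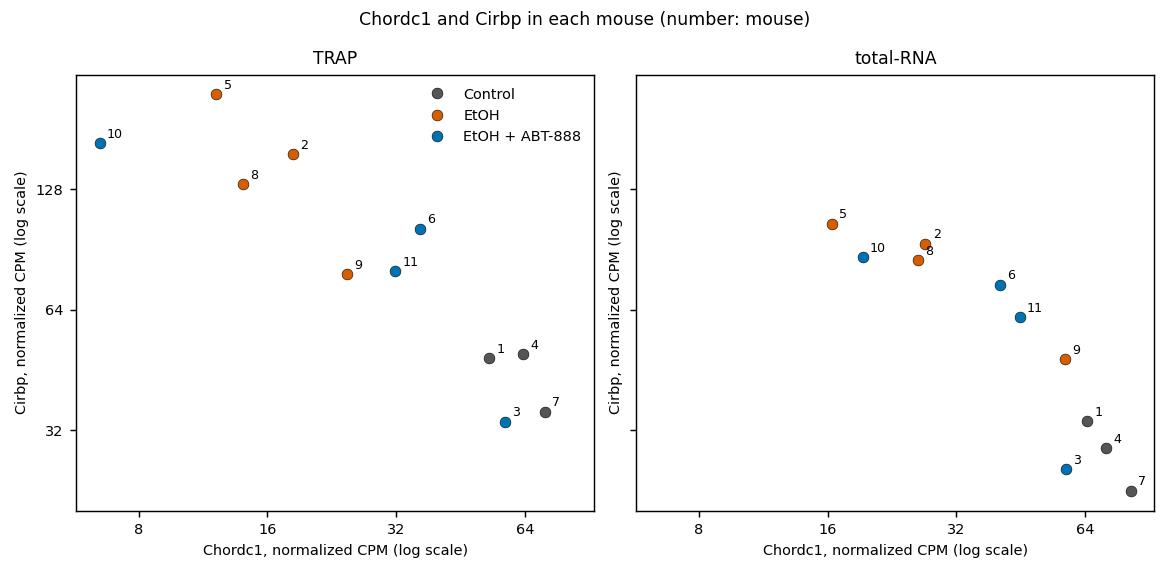
Normalized CPM of Cirbp (vertical axis, log scale) against Chordc1 (horizontal axis, log scale) in TRAP and in total-RNA, 1 point per mouse with its number and its treatment by colour. Mice 5 and 10 have the lowest Chordc1 and mouse 5 the highest Cirbp in both pools, and mouse 3 of EtOH + ABT-888 lies beside the Control mice 1, 4 and 7.

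Over the same 8 mice, r with Cirbp, Rbm3 and Chordc1 was computed for every marker list and for counted reads, in each pool. Most of those given here are among the larger, and none was tested. The summed level of the 8 striatal markers in TRAP had r = -0.88 with Chordc1 and 0.76 with Cirbp. The summed level of the 8 microglial markers had r = 0.66 with Chordc1 in TRAP and 0.79 in total-RNA, and r = -0.66 and -0.73 with Cirbp. In total-RNA the summed level of the 8 astrocyte markers had r = 0.77 with Rbm3 and 0.66 with Cirbp, and in TRAP it had r = -0.28 and -0.49. The counted reads of the TRAP libraries had r = -0.70 with Chordc1. Others were smaller. With Cirbp, striatal markers in total-RNA had r = 0.33, and excitatory markers had 0.06 in TRAP and -0.03 in total-RNA. Oligodendrocyte markers in total-RNA had r = -0.09 with Cirbp, and counted reads had 0.44 in TRAP and 0.33 in total-RNA. In total-RNA, 6 of 8 microglial markers were lower with EtOH than in Control, where 8.6% of all genes were, with a summed level of 149.2 to 232.3 CPM in EtOH, 154.7 to 298.8 CPM in EtOH + ABT-888 and 362.6 to 372.2 CPM in Control, and none of the 8 was at 0 in any group. Of the 8 endothelial and pericyte markers, 3 were lower with EtOH in total-RNA, with a summed level of 116.5 to 157 CPM in EtOH and 160.8 to 188.1 CPM in Control. Of the 8 excitatory markers 3 were lower and 1 higher with EtOH in total-RNA (median log2 fold change -0.35), where 8.6% and 9.04% of all genes were. In TRAP 1 was lower with EtOH (median -0.84), where 2.47% of all genes were. With EtOH + ABT-888 2 were lower in TRAP (median -1.02), where 0.291% of all genes were. In EtOH + ABT-888_TRAP the summed oligodendrocyte markers ran from 324.7 to 1501 CPM, against 347.8 to 457.3 CPM in Control_TRAP. The part of these measures in the levels of Cirbp, Rbm3 and Chordc1 was not tested. In such tissue, fewer cells of a type and less RNA per cell cannot be told apart.

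The addition of ABT-888 on day 4 is measured by EtOH + ABT-888 against EtOH. None of the 10 genes passed in TRAP or in total-RNA, where 0% of all genes passed in each pool, higher or lower, by edgeR's quasi-likelihood test, and 0 of 10 had an unadjusted p under 0.05, against 136 and 269 of 14072 genes. DESeq2 and exactTest each called 2 genes in total-RNA and none of the 10. The groups overlapped for all 10 genes, and did not for 0.945% of all genes in TRAP and 1.36% in total-RNA. For Chordc1 the log2 difference was 0.93 in TRAP, with a 95% interval of -0.05 to 1.90, and 0.36 in total-RNA, with an interval of -0.43 to 1.15. For Cirbp it was -0.62 (-1.46 to 0.22) in TRAP and -0.42 (-1.11 to 0.26) in total-RNA. For Rbm3 it was -0.39 (-0.98 to 0.21) and -0.24 (-0.68 to 0.20). These intervals hold differences of more than 1 on the log2 scale for Chordc1 and Cirbp, and so do not show that the groups are alike. Without mouse 3 the differences were 0.53 and 0.14 for Chordc1, -0.33 and -0.16 for Cirbp, and -0.14 and -0.05 for Rbm3. Leaving out other single libraries moved them the other way. In TRAP they went as far as 1.27 for Chordc1, -1.03 for Cirbp and -0.59 for Rbm3, and in total-RNA to 0.81 for Chordc1. Hsph1 had differences of 0.16 (-0.30 to 0.62) and 0.23 (-0.23 to 0.69), and the HSP90 genes, Hspa8, Hspa5 and Dnajb1 had differences between -0.13 and 0.07 over the pools. The sparse Hspa1b had 0.55 (-0.90 to 1.99) in TRAP and 0.20 (-0.33 to 0.73) in total-RNA. The EtOH libraries here are the same as in EtOH against Control.

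The comparison of TRAP with total-RNA, in which every mouse gave both libraries, asks how each transcript is shared between the tagged ribosomes and the whole tissue. In Control, 3 of 10 genes were higher in TRAP (Hsph1, Hsp90ab1 and Cirbp) and 3 were lower (Hspa8, Hspa1b and Hsp90aa1), where 59.9% of all genes passed (29.5% higher and 30.4% lower), so that 6 of 10 is near the background. With EtOH 6 of 10 passed where 50.7% of all genes did (24.3% higher and 26.5% lower), and with EtOH + ABT-888 4 of 10 where 41% did (19.5% higher and 21.5% lower). The TRAP and total-RNA libraries did not overlap for 6, 2 and 3 of the 10 genes in the 3 treatments, and for 66.9%, 47.3% and 40.4% of all genes. The HSP90 pair was split in all 3 treatments. Hsp90ab1 was at 1173, 1222 and 1309 CPM in Control_TRAP and at 1074, 871 and 1041 CPM in the total-RNA of the same mice. In EtOH it ran from 1176 to 1370 CPM in TRAP and from 860 to 1102 CPM in total-RNA, and in EtOH + ABT-888 from 1159 to 1572 CPM and from 749 to 1066 CPM, so that the pools did not overlap in any treatment. Its log2 fold changes were 0.30 (SE 0.10, adjusted p = 0.02214), 0.33 (SE 0.12, adjusted p = 0.03943) and 0.50 (SE 0.15, adjusted p = 0.02065) for TRAP against total-RNA in Control, EtOH and EtOH + ABT-888. Hsp90aa1 was at 371, 384 and 481 CPM in Control_TRAP and at 637, 601 and 694 CPM in total-RNA. In EtOH it ran from 315 to 425 CPM in TRAP and from 425 to 702 CPM in total-RNA, and in EtOH + ABT-888 from 292 to 422 CPM and from 435 to 750 CPM. It was thus lower in TRAP, with log2 fold changes of -0.66 (SE 0.11, adjusted p = 0.0003176), -0.69 (SE 0.17, adjusted p = 0.00485) and -0.75 (SE 0.19, adjusted p = 0.007275). In each of the 11 mice Hsp90ab1 was above and Hsp90aa1 below its own total-RNA level. With 1 library left out, the Hsp90ab1 call was lost in 2 of 6 fits in Control (TRAP of mouse 7 or total-RNA of mouse 4, adjusted p up to 0.123), in 6 of 8 in EtOH (all but TRAP or total-RNA of mouse 2, adjusted p up to 0.1144) and in 2 of 8 in EtOH + ABT-888 (total-RNA of mouse 6 or 11, adjusted p up to 0.07185). It was also lost in Control in the single fit over 22 libraries (adjusted p = 0.08123) and in EtOH with no filter (adjusted p = 0.1213). The Hsp90aa1 calls held in all of these fits. None of the fits that left out 1 library used the pairing by mouse. With each mouse as a block, edgeR's quasi-likelihood test called Hsp90ab1 in all 3 treatments. The adjusted p was 0.009264, 0.02459 and 0.00281 in Control, EtOH and EtOH + ABT-888.

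Hspa1b was at 0.961, 2.33 and 1.59 CPM in Control_TRAP, at 0.464 to 2.11 CPM in EtOH_TRAP and at 0.739 to 2.95 CPM with EtOH + ABT-888, below every total-RNA value of its treatment. It was lower in TRAP in each treatment, with log2 fold changes of -1.23 (SE 0.33), -2.30 (SE 0.50) and -1.91 (SE 0.41) and adjusted p of 0.00727, 0.002424 and 0.003221, on the low counts given above. Hspa1a was lower in EtOH (-1.57, adjusted p = 0.007608), and its values were -0.69 in Control and -0.75 in EtOH + ABT-888 (adjusted p = 0.1351 and 0.1246). Hsph1 was higher in TRAP, by 0.35 (SE 0.10), 0.65 (SE 0.24) and 0.60 (SE 0.20) on the log2 scale (adjusted p = 0.009992, 0.03757 and 0.03541), and in 11 of 11 mice. Those calls were lost without Control_total-RNA of mouse 1 (adjusted p = 0.05498), without 5 of the 8 EtOH libraries and without 5 of the 8 EtOH + ABT-888 libraries. These are fits without the pairing. With the mouse as a block, the adjusted p of Hsph1 by the same test was 0.001233, 0.0005206 and 0.001656. Hspa8 was lower in TRAP in Control (-0.38, SE 0.12, adjusted p = 0.02022), a call lost without TRAP of mouse 1 or total-RNA of mouse 7 (adjusted p = 0.07382 and 0.07377). With the block its adjusted p in Control was 0.003071. Its values were -0.20 and -0.26 in the treated groups.

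Cirbp was higher in TRAP in Control (0.63, SE 0.16, adjusted p = 0.005893) and in EtOH (0.81, SE 0.29, adjusted p = 0.0352), and in EtOH + ABT-888 it was 0.63 (SE 0.44, adjusted p = 0.2786). Taken mouse by mouse, Cirbp was above its total-RNA level in 11 of 11 mice, and when each mouse was taken as a block the comparison in EtOH + ABT-888 also passed (0.55, adjusted p = 0.003167). Rbm3 passed in none of the 3 treatments without the block, and in EtOH it did with it (0.38, adjusted p = 0.006851). Chordc1 was lower in TRAP in EtOH (-0.89, SE 0.35, adjusted p = 0.04935) and, with the block, in Control (-0.24, adjusted p = 0.02704), and it was below its total-RNA level in 11 of 11 mice. In EtOH, without the block, the Chordc1 call was lost in 6 of the 8 fits that left out 1 library. It held without TRAP of mouse 9 or total-RNA of mouse 5. Without total-RNA of mouse 9 its value was -0.44, with the highest adjusted p, 0.2147. The Cirbp call in EtOH was lost without 5 of the 8 libraries. With the mouse as a block and all 8 libraries, the adjusted p in EtOH was 0.001794 for Chordc1 and 0.0002357 for Cirbp. Hspa5 and Dnajb1 passed in no treatment. In the single fit over 22 libraries the calls of Hspa8, Hsph1 and Cirbp in Control and of Chordc1 and Cirbp in EtOH were also lost (adjusted p of 0.0721 to 0.2573).

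**Figure D4:**
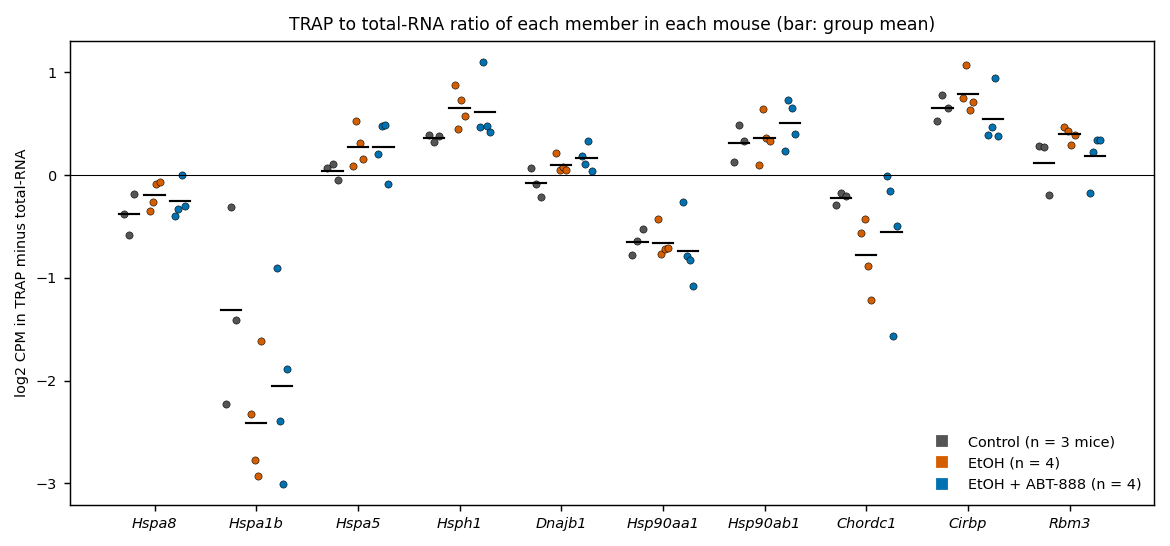
Log2 CPM in TRAP minus log2 CPM in total-RNA (vertical axis) of each gene in each of the 11 mice, coloured by treatment, with a bar for the mean of each group. Hsp90ab1, Hsph1 and Cirbp lie above 0 and Hsp90aa1, Hspa1b and Chordc1 below 0 in all 11 mice, and the treated mice spread widely for Chordc1.

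Whether the EtOH difference was of another size in TRAP than in total-RNA was tested as an interaction. None of the 10 genes passed, and 0 of 10 had an unadjusted p under 0.05, against 4.87% of all genes, where 0.0213% of all genes (3 of 14072, 0.0142% higher and 0.00711% lower) passed by edgeR's quasi-likelihood test. The largest interaction among the genes other than the sparse Hspa1b was that of Chordc1, -0.66 on the log2 scale with a 95% interval of -2.02 to 0.70. For Cirbp it was 0.18 (-1.03 to 1.39) and for Rbm3 0.24 (-0.65 to 1.12). These intervals leave out that both libraries come from 1 mouse, and blocking by mouse gave -0.56 for Chordc1, 0.14 for Cirbp and 0.27 for Rbm3, none of which passed. Within mice, the log2 ratio of TRAP to total-RNA was 0.79 ± 0.20 (SD, n = 4) in EtOH and 0.65 ± 0.13 (SD, n = 3) in Control for Cirbp, and 0.40 ± 0.07 and 0.12 ± 0.27 for Rbm3. The interaction uses the same libraries as EtOH against Control.

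Per length, the 10 genes span a wide range. In Control total-RNA, the level in CPM per kb of exon was 331.8 ± 36.3 for Hsp90ab1, 238.2 ± 12.9 for Hspa8, 163.9 ± 12 for Hsp90aa1, 63.4 ± 6.36 for Hspa5, 42.8 ± 3.84 for Hsph1 and 16.7 ± 0.62 for Dnajb1 (SD, n = 3 each). Cirbp (10.9 ± 2.13), Chordc1 (9.71 ± 1.16) and Rbm3 (7.58 ± 1.83) came next, below Dnajb1, and their ranges overlapped with each other, and Hspa1b was lowest at 1.41 ± 0.33. In EtOH total-RNA, Cirbp stood at 31.8 ± 9.45 and Rbm3 at 18.5 ± 2.72, level with Dnajb1 at 18.4 ± 1.70, while Chordc1 was at 4.23 ± 2.37 (SD, n = 4 each). In Control_TRAP, Hsp90ab1 was again highest, at 411.7 ± 23, and Hspa1b lowest, at 0.580 ± 0.24, with Chordc1 at 8.34 ± 1.24 beside Rbm3 at 8.49 ± 3.16 CPM per kb (SD, n = 3 each).

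The wider chaperone network was read from 7 lists with 96 other genes, of which 92 were tested. With EtOH in total-RNA 25 of the 92 passed against Control, 19 lower (20.7%, against 8.6% of all genes) and 6 higher (6.52%, against 9.04%), and the median log2 fold change of the 92 was -0.08, against 0.00 over all genes. In a single fit over all 22 libraries 2 of the 92 passed (Fkbp5 and Pdia6), among 151 genes. Among HSP90 cochaperones 5 of 15 were lower, led by Ahsa1 (-0.53, SE 0.11), the activator of the HSP90 ATPase, Fkbp4 (-0.49, SE 0.10), an immunophilin of steroid receptor complexes, and Ahsa2 (-0.92, SE 0.19). Of this list 1 was higher, Fkbp5 (1.74, SE 0.12, adjusted p = 1.671e-05), an immunophilin that is known as a target of glucocorticoid receptors. Among HSP70 and J-domain partners 5 of 23 were lower and 0 higher, led by Dnaja4 (-0.60, SE 0.13), the ubiquitin ligase Stub1 (-0.42, SE 0.11) and the exchange factor Hspa4 (-0.51, SE 0.14). Among small heat shock proteins and mitochondrial chaperones 3 of 13 were lower, the crystallin Cryab (-0.88, SE 0.14), the protease Lonp1 (-0.47, SE 0.13) and Trap1 (-0.36, SE 0.11).

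ER chaperones and unfolded protein response genes were lower for 6 of 24, led by the protein disulfide isomerases Pdia4 (-0.80, SE 0.12) and Pdia6 (-0.69, SE 0.10) and by calreticulin, Calr (-0.60, SE 0.11). In the same list Herpud1 (0.58, SE 0.12) and Dnajb9 (0.57, SE 0.12), which serve the degradation of ER proteins, were higher. The list of heat shock factors also holds their binding protein Hsbp1, and 4 of its 5 genes were tested. Of these Hsf2 was higher (0.39, SE 0.12) and the other 3 did not pass. None of the 8 subunits of the TRiC chaperonin passed, with a median of -0.02. Among 5 relatives and partners of Cirbp and Rbm3, the splicing kinases Clk4 (0.77, SE 0.14) and Clk1 (0.42, SE 0.13) were higher. All these are log2 fold changes with an adjusted p under 0.05 by edgeR's quasi-likelihood test, and 11 of the 25 passed also whichever single library was left out, when the count was 12, 13 and 16 without Control mice 4, 1 and 7 and 38 without EtOH mouse 9. The lists were drawn up with earlier results of these data known.

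In TRAP 9 of the 92 genes passed with EtOH (9.78%, against 5.24% of all genes), 5 higher and 4 lower. Fkbp5 was at 160.1 CPM in EtOH and 79.7 CPM in Control (log2 fold change 1.03, SE 0.15, adjusted p = 0.00415), and it was the 1 gene of the 9 that passed whichever library was left out. The count was 1 without any of the 3 Control mice, 3 without EtOH mouse 5, 4 without EtOH mouse 8 and 15 without EtOH mouse 9. Dnajc7 (0.56), P4hb (0.70), Herpud1 (0.58) and Clk4 (0.85) were also higher, and Dnaja4 (-0.94), Dnajb5 (-0.84), the HSP90 cochaperone Ppid (-1.03) and Pdia4 (-0.89) were lower. With EtOH + ABT-888, 0 of 92 passed in TRAP, where 0.476% of all genes did, and 1 in total-RNA, where 0.263% did, Fkbp5 (1.46, SE 0.17, adjusted p = 0.03462). The Fkbp5 call held in 2 of the 7 fits that left out 1 library, those without mouse 3 or mouse 10, with adjusted p up to 0.2199 without Control mouse 1. Without mouse 3 the counts were 3 and 12 of 92, as those of all genes went to 373 and 870 of 14072.

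Between the pools, 47, 47 and 31 of the 92 genes passed in Control, EtOH and EtOH + ABT-888 (51.1%, 51.1% and 33.7%, against 59.9%, 50.7% and 41% of all genes), and blocking by mouse gave 51 in the last of these. Hsf1, the main heat shock factor, was higher in TRAP in each treatment, by 1.22 (SE 0.15), 1.04 (SE 0.29) and 1.08 (SE 0.36) on the log2 scale, and in EtOH + ABT-888 its call held in 4 of 8 fits that left out 1 library. Bag5, an HSP70 cochaperone, was higher by 1.2, 1.32 and 1.25, and the ER ubiquitin ligase Syvn1 by 1.62, 1.45 and 1.58. The small heat shock proteins were lower in TRAP, Hspb8 by -2.91, -2.57 and -3.62 and Cryab by -2.0, -2.31 and -1.89, in the direction of the glial and vascular markers, and what part those cells have in it was not tested.

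The genes whose log2 CPM went most closely with Chordc1 over the 11 TRAP libraries were Parp11 (r = 0.98), Uba6 (0.98) and Pdcl (0.98), and over the 11 total-RNA libraries Slc16a7 (0.99) and Acad9 (0.98). For Cirbp they were Mir9-3hg, Rnf34 and Odf2 in TRAP (0.97 each) and Mir9-3hg (0.98), Gm5914 (0.97) and H2-D1 (0.96) in total-RNA. Mir9-3hg, a long noncoding host gene of a microRNA, headed the Cirbp list in both pools, which share their mice. These r span the 3 treatments and are the highest of 14072 genes, so that they describe likeness only.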

How the data were processed

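RNA of the PFC was measured in TRAP and total-RNA libraries of 11 mice. The authors aligned paired-end reads to mm10 with STAR, counted them per gene with featureCounts on an ENSEMBL annotation, and deposited raw counts for 39056 genes in 22 libraries, without normalization. Versions, strand setting and the handling of reads with several positions are not given in the sources used here. The 10 genes and the related lists were chosen with earlier results of these data known.

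Genes with at least 500 counts in total and reads in at least 3 libraries were kept (14072). Counts were scaled by TMM and tested in R 4.3.3 with edgeR 4.0.16 (quasi-likelihood test, Benjamini-Hochberg adjustment over all genes tested, adjusted p under 0.05), with the libraries of the groups compared, and with all 22 for the interaction. Log2 CPM used a prior count of 1. Positions and exon lengths came from GENCODE vM21, in which 184 genes were not found. The test was tested on simulated data first. Depth was 6570957 to 32421392 reads per library, and reads limit Hspa1b and Hspa1a most.

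Replicates are mice. Libraries with the same animal number come from the same mouse, and their deviations from the group means had r between 0.10 and 0.62, so the mouse was also used as a block. Other alternatives were DESeq2 1.42.0, RLE factors, no filter, exactTest, a single fit over all libraries and leaving out each library. All 10 genes are named, and a gene of the related lists only if it passed, up to 3 per list, comparison and direction by the smallest p. Most alike genes are the 3 with the highest Pearson's r to Chordc1 and to Cirbp in each pool, of which 1 is not reported here.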

Additional observations from a re-analysis of the deposited data

Results flagged for a closer look

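Of 40 groups of 4 libraries examined, 1 held a library far from the other 3. Hspa5 was at 271.1 CPM in the EtOH_total-RNA library of mouse 8, against 193.7 to 200.7 CPM in mice 2, 5 and 9, a gap of 0.91 of the range of the group. Chance sets apart about 1 group in 20. In TRAP the same mouse also had the highest Hspa5 of its group, 337 CPM. The log2 fold change of Hspa5 between EtOH and Control in total-RNA was -0.31 with that library and -0.44 without it, given as a description, since the library was left out for its Hspa5 level.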

How the results depend on the processing

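No value changed direction among the calls tested. For EtOH against Control in TRAP, 737 genes passed, and 1491 with DESeq2, 1472 with no filter, 1372 with exactTest, 1191 with a single fit and 84 to 1550 without 1 library (84 to 112 without a Control library, 1550 without mouse 9). The 10 genes gave 2 to 3 calls without 1 library, and the related genes 14 with DESeq2 and 1 to 15 without 1 library. In total-RNA the single fit gave 151 genes, 1 of the 10 and 2 related genes, against 2482, 5 and 25, and leaving out 1 library gave 878 to 3616, 3 to 6 and 12 to 38. Chordc1 was not called there without mouse 4 or 7 of Control (adjusted p = 0.05453 and 0.07015), nor Hspa8 without mouse 7 (0.05255), nor Cirbp in TRAP without mouse 7 (0.05721), while Hspa5 was added in total-RNA without EtOH mouse 8 (0.01785), a library that stands apart for that gene.

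With EtOH + ABT-888 against Control, the TRAP counts of genes, of the 10 and of related genes were 423, 1 and 3 with DESeq2, 454, 3 and 4 with no filter and 403, 1 and 2 with a single fit, while exactTest gave 318 genes and 2 related genes. Without 1 library they were 0 to 373, 0 to 2 and 0 to 3, the highest without mouse 3. In total-RNA they were 621, 3 and 5 with DESeq2, 544, 4 and 3 with no filter, 544, 3 and 4 with exactTest and 0 to 870, 0 to 5 and 0 to 12 without 1 library. Without mouse 10 they were 177, 0 and 1 in TRAP and 204, 0 and 1 in total-RNA, and without a Control library or that of mouse 6 or 11 they were 0. EtOH + ABT-888 against EtOH gave 0 to 0 without 1 library in each pool, and 2 genes with DESeq2 and with exactTest in total-RNA.

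TRAP against total-RNA in Control gave 2 of the 10 in the single fit, and 7392 to 8383 genes, 5 to 6 of the 10 and 42 to 48 related genes without 1 library. In EtOH these were 6140 to 7085, 3 to 5 and 40 to 47, and in EtOH + ABT-888 4544 to 5939, 2 to 4 and 21 to 32. With the mouse as a replicate block 51 related genes passed in EtOH + ABT-888, and the block changed no call of the 10 other than Chordc1 in Control, Rbm3 in EtOH and Cirbp in EtOH + ABT-888, which it added. The interaction gave 16 genes with DESeq2, 5 with no filter, 14 with the replicate block and 1 to 6 without 1 library, and none of the 10 each time. In the comparisons of pools, using no filter moved the median log2 fold change of all genes by -0.17, -0.22 and -0.23. The cause of these differences was not tested. Fits that leave out 1 library also have fewer libraries, and the part of this was not tested either. Depth limits Hspa1b and Hspa1a, on as few as 7 reads.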
